A study of Saccharomyces cerevisiae with 3 samples.

Results

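The genes for superoxide dismutases, catalases and peroxidases of *Saccharomyces cerevisiae* were followed in cells of 3 genotypes on Day 3 of culture. They were chosen by name as *SOD1*, *SOD2*, *CTT1*, *CTA1*, *CCP1*, *TSA1*, *TSA2*, *PRX1*, *AHP1* and *DOT5*, and all 10 had a probe set, among 5449 *S. cerevisiae* genes measured. Total RNA came from haploid *rtg3Δ met15Δ*, *met15Δ* and wild-type cells grown in synthetic complete medium, and was hybridized to Affymetrix Yeast Genome 2.0 arrays. All strains derived from the BY4741/BY4742 laboratory background and carried its deletions of *HIS3*, *LEU2* and *URA3*. *MET15* (*MET17* in the array's annotation) encodes the sulfhydrylase that fixes sulfide in the synthesis of methionine, so *met15Δ* cells cannot make methionine from sulfide, and *RTG3* encodes a transcription factor of the retrograde response, by which mitochondrial state alters nuclear gene expression. There was 1 array per genotype, so no value carries an error, no test between genotypes was possible, and the number of arrays limits the precision. Because *RTG3* was deleted only in cells that also lacked *MET15*, its effect in cells with *MET15* was not measured.

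Superoxide dismutases turn superoxide, a by-product of respiration, into oxygen and hydrogen peroxide. Catalases split the peroxide without a cosubstrate. Peroxidases reduce it with electrons from a partner, which is cytochrome c for Ccp1 and thioredoxin or glutathione for the peroxiredoxins. In yeast these enzymes are spread over the cytosol, mitochondria, peroxisomes and nucleus, and several are known to become more abundant as cells leave fermentation for respiration.

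All 10 genes were above background on every array. A signal here is the authors' RMA intensity for a probe set, on a linear scale, and the genes lay between 1344 and 23352 in *rtg3Δ met15Δ* cells, between 775 and 22248 in *met15Δ* cells and between 727 and 10913 in wild-type cells. The highest signal among probe sets for another yeast species, which serve as background, was 289, 273 and 273 on those arrays. Each gene had 1 probe set, so no second probe set of the same gene could be compared, and signals of different genes are not set against each other. *TSA1* and *TSA2* encode closely related proteins. Their probe sets carry the name ending that the manufacturer gives to sets for a single transcript, but cross-hybridization between them was not tested.

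*MET17* and *RTG3* were under the background signal in the strains said to lack them. *MET17* had a signal of 89.9 in *rtg3Δ met15Δ*, 85.0 in *met15Δ* and 2874 in wild-type cells, and *RTG3* had 28.7, 2215 and 2703. Of the deletions common to all strains, *LEU2* and *URA3* were at 40.6 and 30.8 on every array, but *HIS3* had 4271, 9662 and 18655, well above background, and whether its probe set lies in the part deleted was not tested. The cultures also differed in genes of mating type. The 7 a-cell marker genes had summed signals of 37428, 16884 and 1901 in *rtg3Δ met15Δ*, *met15Δ* and wild-type cells, with 0, 0 and 5 of the 7 under the background signal. The 5 alpha-cell markers summed to 5887, 1988 and 4735, with 2, 3 and 1 under it. Of these sums *MF(ALPHA)1* alone made up 2807, 101 and 344. *HMLALPHA1*, an alpha gene, had 59.7, 71.5 and 977, above background only in wild-type cells. *HMRA1*, an a gene, had 5016, 4073 and 47.1, above background only in the mutants. The labels do not give the mating type of the strains. Between the mutants 4 of 7 a-cell and 2 of 5 alpha-cell markers were at least 2-fold higher in *rtg3Δ met15Δ*, and 0 lower. Of all genes 10.4% were higher by that much. The part of mating type in the values below was not tested in any comparison. In the comparisons with wild-type it cannot be told apart from the *MET15* deletion.

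A gene was called when its signals on 2 arrays differed at least 2-fold, the threshold of the study's methods. In *met15Δ* cells 6 of the 10 genes exceeded their wild-type signal at least 2-fold, against 16.9% of all *S. cerevisiae* genes, and 1 fell below it by that much, against 11.1%. The higher genes were *CTT1* (7.04-fold), *SOD2* (5.90-fold), *PRX1* (3.05-fold), *AHP1* (2.28-fold), *SOD1* (2.06-fold) and *TSA1* (2.04-fold), and the lower gene was *DOT5* (3.01-fold). *CTA1*, *CCP1* and *TSA2* differed by at most 1.10-fold. The median log2 ratio was 1.04 over the 10 genes and 0.07 over all genes.

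**Figure D1:**
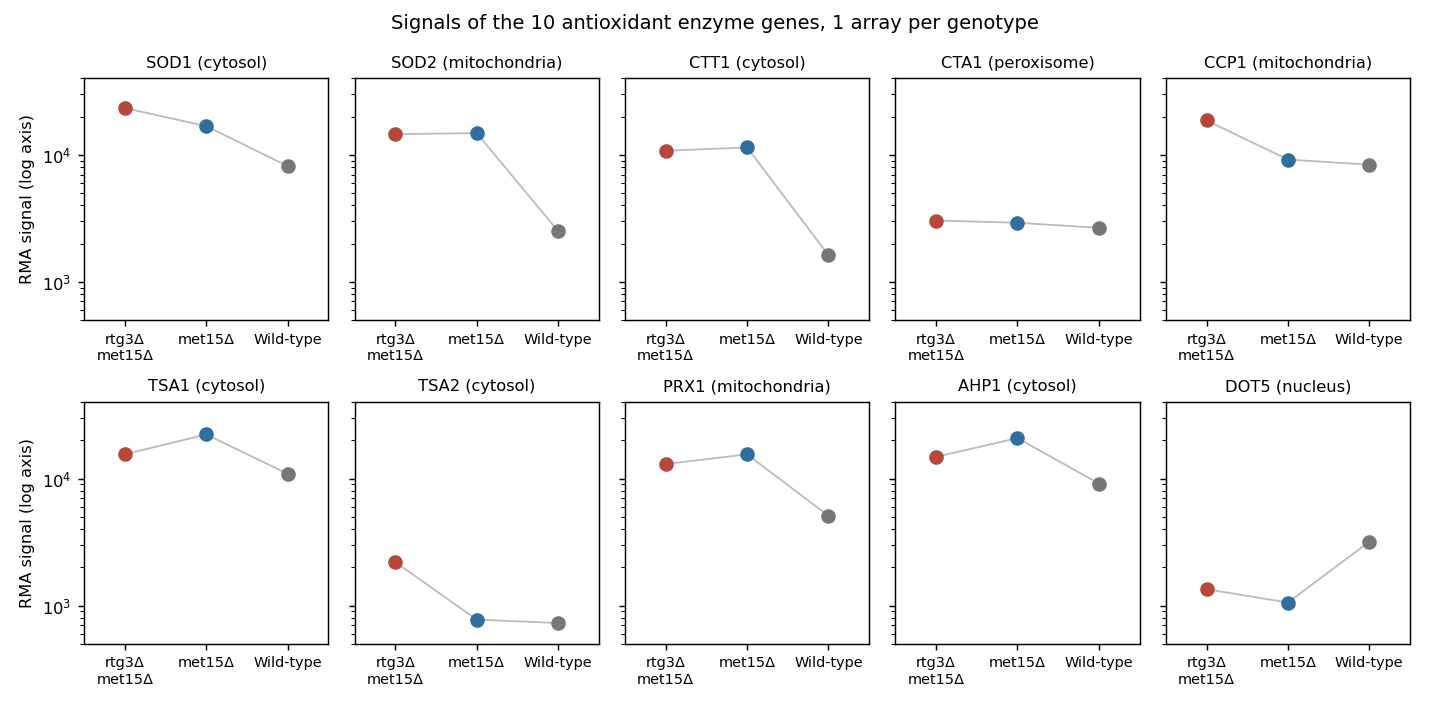
RMA signal (log axis) of each of the 10 genes in *rtg3Δ met15Δ*, *met15Δ* and wild-type cells; each point is 1 array and the grey lines only join the points of a gene. *SOD2* and *CTT1* sit high in both mutants and low in wild-type, *TSA2* and *CCP1* are highest in *rtg3Δ met15Δ*, and *DOT5* is highest in wild-type.

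Both dismutase genes had more transcript without *MET15*. *SOD2*, which encodes the manganese enzyme of the mitochondrial matrix, had signals of 14560 in *rtg3Δ met15Δ*, 14840 in *met15Δ* and 2516 in wild-type cells. By the deposited signals the mutants were 1.02-fold apart, and 98.9% of all genes had a lower *met15Δ* over wild-type ratio. *SOD1*, which encodes the copper and zinc enzyme of the cytosol and the mitochondrial intermembrane space, had 23352, 16842 and 8165. By the deposited signals it thus lay highest in the double mutant, 2.86-fold above wild-type and 1.39-fold above *met15Δ* cells. With the bacterial controls *SOD1* was instead lower in the double mutant than in *met15Δ* cells (log2 ratio -0.30). Its *met15Δ* ratio was close to the threshold, and it fell short of 2-fold (log2 ratio 0.74) when each array was divided by its median signal. Between *met15Δ* and wild-type cells the ratio of *SOD2* exceeded that of *SOD1* by 1.52 on the log2 scale, a difference that no scaling of whole arrays can alter.

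The 2 catalase genes behaved differently. *CTT1* encodes the cytosolic catalase T, a classical target of the general stress response, and had signals of 10772 in *rtg3Δ met15Δ*, 11439 in *met15Δ* and 1625 in wild-type cells. With 7.04-fold in *met15Δ* over wild-type cells it had the largest ratio of the 10 genes, above that of 99.4% of all genes. By the deposited signals the mutants were 1.06-fold apart. *CTA1* encodes catalase A, which acts in peroxisomes and mitochondria, and had 3040, 2918 and 2665. Its ratio of *met15Δ* to wild-type signal, 0.13 on the log2 scale, lay near the median of all genes, and its sign turned with the scaling (-0.17 with array medians). The *CTT1* ratio exceeded the *CTA1* ratio by 2.68 on the log2 scale in *met15Δ* over wild-type cells and by 2.54 in *rtg3Δ met15Δ* over wild-type cells.

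The peroxiredoxin genes fell into several patterns. *TSA1*, which encodes the main cytosolic thioredoxin peroxidase, had signals of 15545 in *rtg3Δ met15Δ*, 22248 in *met15Δ* and 10913 in wild-type cells. *AHP1*, the gene of a peroxiredoxin that prefers alkyl hydroperoxides, had 14830, 20834 and 9141. For both genes *met15Δ* cells had the highest signal and the double mutant lay between the other genotypes. In *rtg3Δ met15Δ* cells *TSA1* was 1.42-fold and *AHP1* 1.62-fold above wild-type, short of the threshold. Their *met15Δ* over wild-type ratios also fell short when each array was divided by its median signal (log2 0.72 and 0.88).

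*PRX1* encodes the mitochondrial peroxiredoxin and had signals of 13022 in *rtg3Δ met15Δ*, 15516 in *met15Δ* and 5093 in wild-type cells. Both mutants were above wild-type, by 2.56-fold and 3.05-fold, and 1.19-fold apart from each other. *DOT5*, the gene of a nuclear peroxiredoxin, had 1344, 1056 and 3179. By the deposited signals it was the only one of the 10 genes with less transcript in both mutants than in wild-type cells. With array medians *CTA1* was slightly lower in both as well (log2 ratio -0.31 in *rtg3Δ met15Δ* and -0.17 in *met15Δ* cells). *DOT5* was 2.37-fold lower in *rtg3Δ met15Δ* and 3.01-fold lower in *met15Δ* cells, and passed the threshold under all 4 scalings tried in both comparisons. Only 4.59% of all genes had a lower ratio in *met15Δ* over wild-type cells.

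*TSA2*, the paralog of *TSA1*, had another order. Its signals were 2199 in *rtg3Δ met15Δ*, 775 in *met15Δ* and 727 in wild-type cells, so that *met15Δ* and wild-type cells were 1.06-fold apart and the double mutant stood above both. The difference between the *TSA2* and *TSA1* ratios in *rtg3Δ met15Δ* over *met15Δ* cells was 2.02 on the log2 scale, or 4.06-fold. *CCP1*, which encodes the heme-containing cytochrome c peroxidase of the mitochondrial intermembrane space, had signals of 18668, 9189 and 8362. Like *TSA2* it was nearly level between *met15Δ* and wild-type cells (1.10-fold) and higher in the double mutant. With array medians the log2 ratios of *TSA2* and *CCP1* in *met15Δ* over wild-type cells were -0.21 and -0.17, so their sign turned with the scaling.

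**Figure D2:**
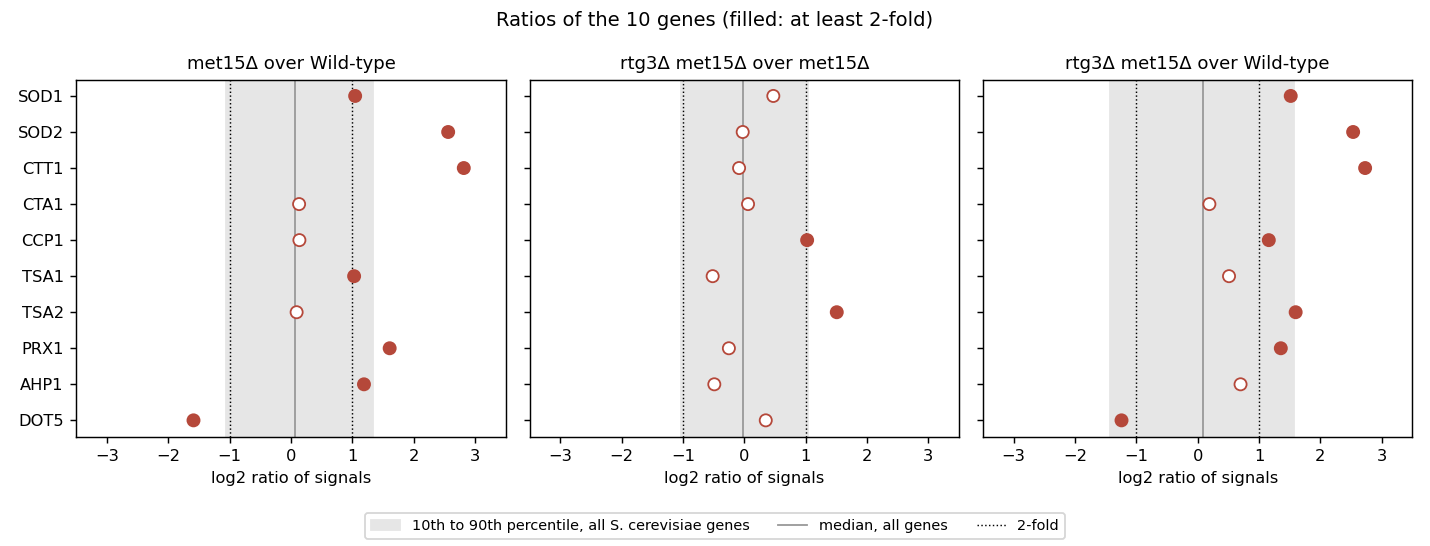
Log2 ratio of signals for each of the 10 genes in the 3 comparisons (filled points: at least 2-fold; dotted lines: 2-fold); the grey band spans the 10th to 90th percentile and the grey line the median of all 5449 *S. cerevisiae* genes. In *met15Δ* over wild-type *SOD2*, *CTT1* and *PRX1* lie above the band and *DOT5* below it, and in *rtg3Δ met15Δ* over *met15Δ* only *TSA2* lies outside it.

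Comparing *rtg3Δ met15Δ* with *met15Δ* cells asks which differences change when *RTG3* is deleted as well. *TSA2* was 2.84-fold and *CCP1* 2.03-fold higher in *rtg3Δ met15Δ* cells, which made 2 of the 10 genes against 10.4% of all genes, and 0 passed the threshold downwards, against 10.6%. The other 8 genes had log2 ratios between -0.52 (*TSA1*) and 0.47 (*SOD1*), and the median over the 10 genes was 0.02, against -0.02 over all genes. Of the 6 genes higher in *met15Δ* cells, 0 came back by 2-fold or more once *RTG3* was gone as well, nor did *DOT5*, against 14.9% of all genes that were higher in *met15Δ* cells and 24.4% of those that were lower. Scaling to the array's bacterial control probe sets altered this comparison: *TSA1*, *AHP1* and *PRX1* were then at least 2-fold lower in *rtg3Δ met15Δ* cells (log2 ratios -1.29, -1.26 and -1.03), and neither *TSA2* (0.73) nor *CCP1* (0.25) passed. *CTT1* (-0.86) and *SOD2* (-0.80) were then lower too, short of the threshold. With these controls 2.79% of all genes were higher and 39.8% lower in this comparison. With array medians *TSA2* (1.31) passed and *CCP1* (0.83) did not, beside 7.87% of all genes higher and 16.1% lower.

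Set against wild-type cells, *rtg3Δ met15Δ* cells had 6 of the 10 genes at least 2-fold higher, against 21.1% of all genes, and *DOT5* lower, against 17.2%. These 6 were *CTT1* (6.63-fold), *SOD2* (5.79-fold), *TSA2* (3.02-fold), *SOD1* (2.86-fold), *PRX1* (2.56-fold) and *CCP1* (2.23-fold). Compared with the *met15Δ* list, *TSA2* and *CCP1* stood in the place of *TSA1* and *AHP1*. The median log2 ratio was 1.26 over the 10 genes and 0.09 over all genes. Since each array enters 2 comparisons, the 3 sets of ratios are not independent of each other.

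*SOD2*, *CTT1* and *DOT5* passed the threshold against wild-type in both mutants under all 4 scalings (signals as deposited, divided by the median of all probe sets or of the *S. cerevisiae* probe sets, and divided by the bacterial controls). For *SOD2* the log2 ratio in *met15Δ* over wild-type cells was between 2.26 and 3.10, for *CTT1* between 2.51 and 3.36 and for *DOT5* between -1.89 and -1.05. *PRX1* passed throughout in *met15Δ* over wild-type cells (1.30 to 2.15), and *SOD1* (1.02 to 1.56) and *TSA2* (1.10 to 1.64) in *rtg3Δ met15Δ* over wild-type cells. With array medians the number of the 10 genes at least 2-fold higher in *met15Δ* cells was 3 (*SOD2*, *CTT1* and *PRX1*) and the lower gene was still *DOT5*, against 10.4% and 17.5% of all genes. *AHP1* passed as well with the *S. cerevisiae* medians, where *SOD1* and *TSA1* (log2 ratio 0.98) fell just short. With the bacterial controls the 6 genes passed, where 33.7% of all genes were higher and 4.83% lower. In *rtg3Δ met15Δ* over wild-type cells *CCP1* (0.66) and *PRX1* (0.86) missed the threshold with array medians, where 11.2% of all genes were higher and 28.8% lower, and *CCP1* (0.93) missed it with the bacterial controls, where these shares were 15.7% and 22.4%. The median log2 ratio of all genes in *met15Δ* over wild-type cells was -0.23 with array medians, 0.03 with the *S. cerevisiae* medians and 0.61 with the bacterial controls. In *rtg3Δ met15Δ* over *met15Δ* cells it was -0.22, 0.07 and -0.80.

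**Figure D3:**
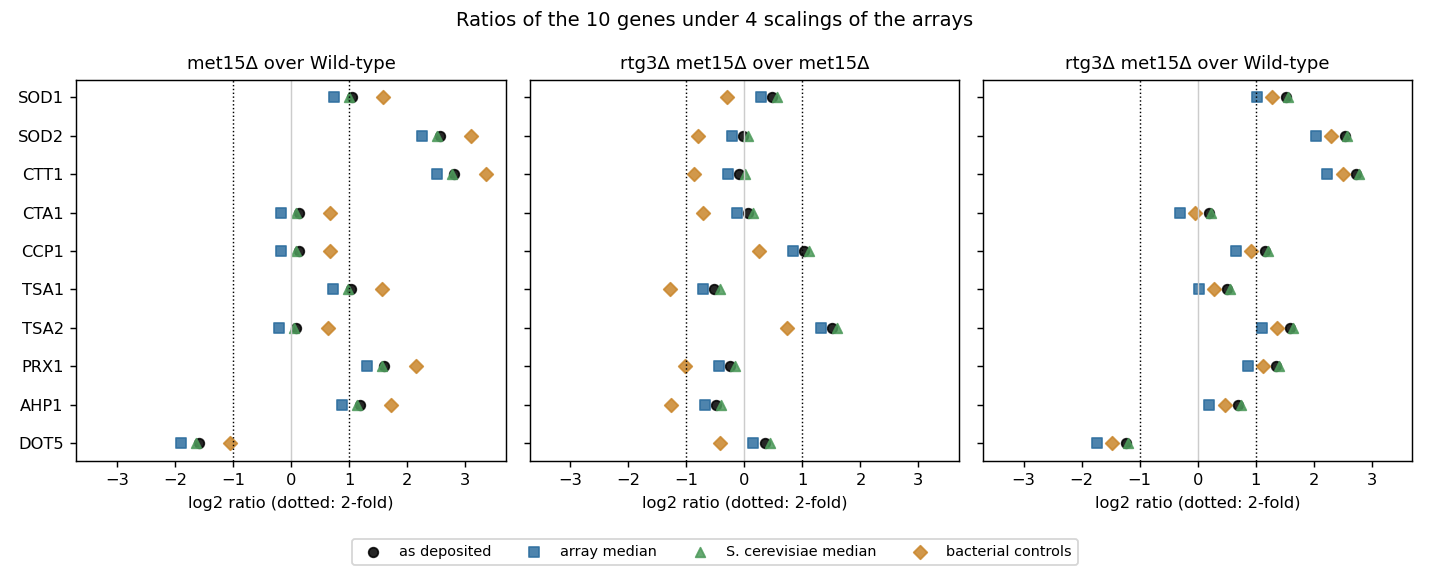
Log2 ratio of each of the 10 genes in the 3 comparisons under 4 scalings of the arrays (black circles: as deposited; blue squares: array median; green triangles: median of the *S. cerevisiae* probe sets; orange diamonds: bacterial controls; dotted lines: 2-fold). *SOD2*, *CTT1* and *DOT5* stay beyond the dotted lines in both comparisons with wild-type. In *rtg3Δ met15Δ* over *met15Δ*, *CCP1* and *TSA2* fall inside them with the bacterial controls, and *CCP1* also with array medians.

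*CTT1* and *SOD2* were among the nearest genes to each other in shape over the 3 arrays. Likeness was measured as the distance between log2 signals after each gene was centred on its own mean, over 3 arrays, among genes with a signal above 300 on every array, and a factor applied to a whole array leaves this distance as it is. *SOD2* was the second nearest of 4509 genes to *CTT1* (distance 0.19), and *CTT1* the fourth nearest to *SOD2*. Only 3 genes lay within 0.25 of *CTT1*, the others being *RTN2*, a reticulon gene (0.14), and *GAD1*, which encodes glutamate decarboxylase (0.20). *GAD1* was also the nearest gene to *SOD2* (0.03), with signals of 12104 in *rtg3Δ met15Δ*, 12667 in *met15Δ* and 2140 in wild-type cells, followed by *FMP16* (0.11) and the Rab GTPase gene *YPT31* (0.17). *TSA1* and *AHP1* were 0.14 apart, but here 172 genes lay within 0.25 of *TSA1*, so with 3 arrays this shape was common. The nearest genes to *TSA2* were *PET127*, which acts in mitochondrial RNA processing (0.02), *ERP6* (0.06) and *YJR096W* (0.06), and the nearest to *CCP1* were the mitochondrial ribosomal protein gene *RSM7* (0.01), *HSL7* (0.02) and *CBP6*, needed for cytochrome b synthesis (0.03). For *DOT5* they were *MTH1*, a regulator of hexose transporter genes (0.05), *YOR062C* (0.05) and *RNH202* (0.06), and for *SOD1* they were *POM34* (0.02), *YKR070W* (0.02) and *TAZ1* (0.04). The nearest genes were *MAD1*, *YEN1* and *ARA1* for *TSA1*, *YOR111W*, *ECM29* and *ALE1* for *AHP1*, and *YET3*, *ENO1* and *SDS22* for *PRX1*, all at distances of at most 0.05. The number of genes within 0.25 was 152 for *AHP1*, 119 for *SOD1*, 100 for *CCP1*, 72 for *PRX1*, 41 for *TSA2*, 40 for *DOT5* and 10 for *SOD2*. With so many genes alike over 3 arrays, a shared function of near genes cannot be read from these distances.

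Genes that work with these enzymes were gathered in 11 lists. Of the 77 genes, written from general knowledge with earlier results of these data known, 25 were higher and 10 lower by 2-fold or more when *met15Δ* cells were set against wild-type, beside 16.9% and 11.1% of all genes. Between *rtg3Δ met15Δ* and *met15Δ* cells 14 were higher and 4 lower, beside 10.4% and 10.6%, and between *rtg3Δ met15Δ* and wild-type cells 35 were higher and 5 lower, beside 21.1% and 17.2%. The same shares stand behind the counts of each list that follow, most of which are lists of few genes. With the bacterial controls 0 genes of the metal supply, thioredoxin, heme, cytochrome c, general stress and peroxisomal lists were lower in *met15Δ* cells against wild-type. The lower calls given in that comparison for *CTR1*, *TRR1*, *HEM13*, *CYC7*, *SPI1* and *POX1* thus did not hold with these controls.

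**Figure D4:**
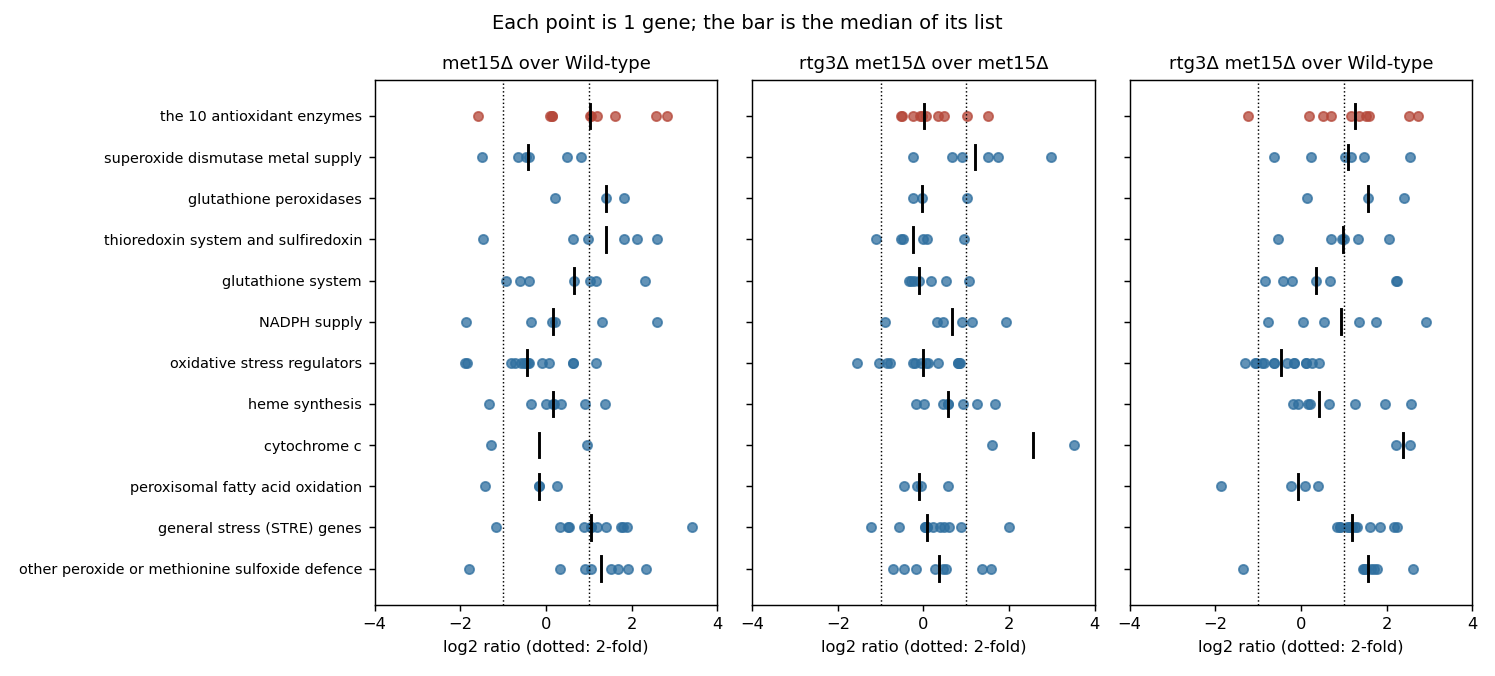
Log2 ratios of the 10 genes (red) and of the genes of 11 related lists (blue) in the 3 comparisons; each point is 1 gene, black bars are list medians and dotted lines mark 2-fold. The cytochrome c genes and most genes of dismutase metal supply lie to the right in *rtg3Δ met15Δ* over *met15Δ* (medians 2.55 and 1.19), and the general stress genes to the right in both comparisons with wild-type (medians 1.05 and 1.19).

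Of 6 genes that supply metal to the dismutases, 3 lay at least 2-fold above and 0 as far below their *met15Δ* signal in *rtg3Δ met15Δ* cells (median log2 ratio 1.19), beside 10.4% of all genes, although with the bacterial controls 1 was higher and 1 lower. *MTM1*, needed to load Sod2 with manganese, had signals of 5303 in *rtg3Δ met15Δ*, 1597 in *met15Δ* and 902 in wild-type cells, and the manganese transporter gene *SMF2* had 5750, 2040 and 2819. *CTR1*, the plasma membrane copper transporter gene, had 5440, 690 and 1946, so it was 2.82-fold lower in *met15Δ* cells relative to wild-type and 7.88-fold higher in *rtg3Δ met15Δ* than in *met15Δ* cells. *CCS1*, whose product is the copper chaperone of Sod1, stayed within 2-fold in all 3 comparisons (1575, 848 and 1342). The copper-responsive regulator genes *CUP2* and *MAC1* were 3.60-fold and 3.68-fold lower in *met15Δ* cells relative to wild-type. Cup2 is a known activator of *SOD1*, which was higher there, and a link between these transcript levels was not tested.

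The genes of both cytochromes c, the electron donors of Ccp1, were at least 2-fold higher in the double mutant than in *met15Δ* cells, as *CCP1* was. With the bacterial controls 1 of the 2 passed, and *CCP1* did not (log2 ratio 0.25). With array medians the 2 cytochrome c genes passed, and *CCP1* again did not (0.83). *CYC1* had signals of 15990 in *rtg3Δ met15Δ*, 5314 in *met15Δ* and 2727 in wild-type cells, and *CYC7* had 27431, 2403 and 5866. *CYC7* was thus 11.4-fold higher and *CYC1* 3.01-fold higher in *rtg3Δ met15Δ* than in *met15Δ* cells, beside 2.03-fold for *CCP1*. In *met15Δ* over wild-type cells *CYC7* was 2.44-fold lower, while *CCP1* was nearly level. Heme, the cofactor of Ccp1 and the catalases, is made by the products of 8 genes, among which *HEM12* (3.20-fold) and *HEM13* (2.39-fold) were at least 2-fold higher in *rtg3Δ met15Δ* than in *met15Δ* cells, with 0 lower, beside 10.4% of all genes higher. With the bacterial controls 0 of the 8 were higher, and their median log2 ratio was -0.20. *HEM13*, which responds to oxygen, was 2.50-fold lower in *met15Δ* cells relative to wild-type.

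Transcripts for the electron supply of the peroxiredoxins did not all differ in the same direction. Of 6 genes of the thioredoxin system, 3 lay at least 2-fold above wild-type and 1 as far below in *met15Δ* cells. *TRX1*, a cytosolic thioredoxin gene, had signals of 2518 in *rtg3Δ met15Δ*, 3632 in *met15Δ* and 604 in wild-type cells, while *TRX2*, the other cytosolic one, had 18636, 17617 and 11369 and stayed within 2-fold. The reductase genes went opposite ways. *TRR2*, for the mitochondrial thioredoxin reductase, was 4.34-fold higher in *met15Δ* cells relative to wild-type, as *PRX1* was 3.05-fold, and 2.17-fold lower in *rtg3Δ met15Δ* than in *met15Δ* cells. *TRR1*, for the cytosolic reductase that serves Tsa1 and Ahp1, was 2.79-fold lower in *met15Δ* cells relative to wild-type, where *TSA1* and *AHP1* were higher. *SRX1*, whose product restores overoxidized Tsa1, exceeded its wild-type level at least 3.11-fold in *met15Δ* cells, a lower bound because its wild-type signal of 241 was under the background signal.

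Some of the genes around glutathione were also higher in *met15Δ* cells. Of the 3 glutathione peroxidase genes, *HYR1*, whose product also senses peroxide for the regulator Yap1, was 3.53-fold and *GPX1* 2.63-fold higher than in wild-type cells, and *GPX2* was within 2-fold. By the deposited signals, though not with array medians or the bacterial controls, *GPX1* was in addition 2.02-fold higher in *rtg3Δ met15Δ* than in *met15Δ* cells (17275, 8555 and 3256 in *rtg3Δ met15Δ*, *met15Δ* and wild-type cells). In the glutathione list 3 of 7 genes were higher in *met15Δ* cells relative to wild-type, beside 16.9% of all genes, but 1 was higher and 1 lower with array medians. The deposited signals put *GRX2*, a glutaredoxin gene, at 5.00-fold and *GSH1*, for the first enzyme of glutathione synthesis, at 2.26-fold, and *GSH1* lost its call with array medians. Among 6 genes for NADPH supply, the 6-phosphogluconate dehydrogenase genes *GND1* and *GND2* went opposite ways in *met15Δ* over wild-type cells, 3.68-fold lower and 6.06-fold higher.

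Of 14 regulator genes, 1 lay at least 2-fold above wild-type and 2 as far below in *met15Δ* cells, beside 16.9% and 11.1% of all genes, with a median log2 ratio of -0.45 (0.09 with the bacterial controls). *YAP1*, for the main peroxide-responsive activator of *TSA1* and *AHP1*, had signals of 2743 in *rtg3Δ met15Δ*, 3230 in *met15Δ* and 3438 in wild-type cells, and *MSN2* and *MSN4*, for activators of *CTT1*, had ratios within 2-fold in every comparison. Yap1, Msn2 and Msn4 are known to be controlled mainly by their place in the cell. *RIM15*, for a kinase needed in stationary phase, was 2.92-fold lower in *rtg3Δ met15Δ* than in *met15Δ* cells (721 and 2107). By the deposited signals *CTT1* and *SOD2* differed by at most 1.06-fold between these cells. With the bacterial controls their log2 ratios were -0.86 and -0.80.

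The general stress genes, which share their known activators with *CTT1*, resembled it in direction. Of 13 such genes 8 lay at least 2-fold above wild-type and 1 as far below in *met15Δ* cells, beside 16.9% and 11.1% of all genes, with a median log2 ratio of 1.05. In *rtg3Δ met15Δ* cells against wild-type 10 were higher and 0 lower (median 1.19), beside 21.1% and 17.2%. With array medians the numbers higher were 5 and 4. Between the mutants the median was 0.08, with 1 gene higher and 1 lower. With the bacterial controls this median was -0.69, with 1 gene higher and 2 lower in *rtg3Δ met15Δ* than in *met15Δ* cells. *SSA3*, an Hsp70 gene, had signals of 14556 in *rtg3Δ met15Δ*, 21726 in *met15Δ* and 5903 in wild-type cells, and *ALD3*, an aldehyde dehydrogenase gene, had 2721, 1952 and 578. *GRE1*, a hydrophilin gene, was 10.6-fold higher in *met15Δ* cells relative to wild-type and 2.35-fold lower in *rtg3Δ met15Δ* than in *met15Δ* cells. *SPI1*, a cell wall gene, was the exception in *met15Δ* cells at 2.24-fold lower.

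Other genes of peroxide and methionine sulfoxide defence were mostly higher in both mutants. Of 8 such genes, 5 lay at least 2-fold above wild-type and 1 as far below in *met15Δ* cells, and 7 and 1 did so in *rtg3Δ met15Δ* cells (5 and 1 with array medians). The methionine sulfoxide reductase genes *MXR1* and *MXR2*, whose products repair oxidized methionine, exceeded their wild-type signals 3.79-fold and 5.06-fold in *met15Δ* cells. *HSP31*, for a glyoxalase of the DJ-1 family, had signals of 12755 in *rtg3Δ met15Δ*, 4260 in *met15Δ* and 2068 in wild-type cells. The lower gene was *OYE2*, an NADPH oxidoreductase gene, 2.54-fold in *rtg3Δ met15Δ* and 3.48-fold in *met15Δ* against wild-type cells.

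*CTA1* stood beside the genes of peroxisomal fatty acid oxidation, whose first enzyme releases hydrogen peroxide. Of 4 such genes 0 were at least 2-fold higher and only *POX1*, for that acyl-CoA oxidase, was lower, 3.66-fold in *rtg3Δ met15Δ* and 2.66-fold in *met15Δ* against wild-type cells (1181, 1622 and 4320). *FOX2*, *POT1* and the import receptor gene *PEX5* stayed within 2-fold in all 3 comparisons, as *CTA1* did. *ADR1* and *OAF1*, for activators of *CTA1*, were within 2-fold too, and *PIP2*, for the partner of Oaf1, was 2.48-fold lower in *rtg3Δ met15Δ* than in wild-type cells.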

How the data were processed

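RNA of 3 yeast cultures was measured on Affymetrix Yeast Genome 2.0 arrays, 1 per genotype, with groups taken from the genotype labels. The authors corrected the scanned intensity values for background and summarised them with RMA in RMAExpress, and deposited 1 linear intensity per probe set for 10928 probe sets. The choice of normalization options was not given in the sources used here, nor was the genome build of the annotation. Deposited values were used with no further scaling, so differences between arrays in total signal that this normalization removed or left cannot be seen.

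Names came from GEO's annotation of the platform, in which 7244 probe sets have 1 symbol, 1 has several and 3683 have none. Of the named ones, 5498 matched 5449 *S. cerevisiae* genes of a gene table of assembly R64, used for names only, and 1746 belong to another species. Log2 signals of a gene's probe sets were averaged. With 1 array per genotype, calls rest on a 2-fold difference and no p-value was computed. Where the lower of 2 signals was under the highest other-species signal of its array, that highest signal took its place and the fold is a minimum. Named were the 10 genes, list genes past 2-fold with the largest ratios (up to 4 a list) or acting directly on a member, and the 3 nearest genes of members past 2-fold; a few others were picked after seeing their values. The members and lists were chosen with earlier results of these data known. The calculation (Python 3.11.15, pandas 2.3.3, numpy 2.4.6) was tested on simulated data. Alternatives were 3 other scalings, a floor, a background subtraction, the brightest probe set and a 1.5-fold threshold. No sequences were used here.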

Additional observations from a re-analysis of the deposited data

How the results depend on the processing

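No paired analysis was possible because each genotype had a single array, which also leaves no replicate to omit. No call of the 10 genes was affected by a floor on low signals, by subtracting the background signal or by taking the brightest probe set, and none changed sign while called. Array medians as the scale gave 3 genes higher in *met15Δ* cells relative to wild-type, beside 10.4% of all genes. They gave 1 (*TSA2*) higher in *rtg3Δ met15Δ* than in *met15Δ* cells, beside 7.87% of all genes. The bacterial controls gave 0 higher and 3 lower in *rtg3Δ met15Δ* than in *met15Δ* cells. The cause was not tested, and the amount of control added to each sample is not stated.

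With array medians 21 of the 77 list genes were higher and 13 lower in *rtg3Δ met15Δ* than in wild-type cells. With the bacterial controls 38 were higher and 4 lower in *met15Δ* cells relative to wild-type, 4 higher and 19 lower in *rtg3Δ met15Δ* than in *met15Δ*, and 9 lower in *rtg3Δ met15Δ* than in wild-type cells. A 1.5-fold threshold gave 25 higher and 8 lower between the mutants, beside 19.9% and 23.9% of all genes. It gave 12 lower in *rtg3Δ met15Δ* than in wild-type cells, beside 26.6% of all genes.

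Over all probe sets, array medians gave 611 higher and 1025 lower in *met15Δ* cells relative to wild-type, 915 lower in *rtg3Δ met15Δ* than in *met15Δ*, and 654 higher and 1722 lower in *rtg3Δ met15Δ* than in wild-type cells, where the deposited signals gave 980 and 646, 600, and 1238 and 971. The bacterial controls gave 1957 higher and 284 lower in *met15Δ* cells relative to wild-type, and 171 higher and 2431 lower in *rtg3Δ met15Δ* than in *met15Δ* cells. The 1.5-fold threshold gave 1691 and 1216, then 1247 and 1376 between the mutants, and 1946 and 1560 in *rtg3Δ met15Δ* over wild-type cells.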
